A study of Sus scrofa with 8 samples.

Results

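Definitive endoderm is the first gut-forming layer that pluripotent cells give rise to, and in this pig differentiation series it stands between pluripotent stem cells and anterior foregut endoderm. The genes described here form its transient programme: genes higher, or lower, in both libraries of definitive endoderm (DE) than in both libraries of porcine pluripotent stem cells (PSC) and both libraries of anterior foregut endoderm (AFE). The comparison uses 6 of the 8 libraries, 2 per stage. The other two are lung progenitor organoids (LPO), the last stage, which enter the common model and are given beside the results. Of 19346 genes tested, 3179 were higher and 2171 lower in DE than in both flanking stages. All libraries are poly(A)-selected RNA of Sus scrofa cells, and the labels give the stage and a number for each library, without the line, the medium, the days of culture or whether a stage's 2 libraries stem from different cultures. The p-values therefore reflect the spread among these libraries, which may be technical.

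During gastrulation, cells leaving the epiblast under NODAL, WNT and BMP signals pass through a mesendodermal state and become mesoderm or definitive endoderm. EOMES, SOX17, GATA4, GATA6 and FOXA2 are among the transcription factors that set up the endodermal fate. Visceral endoderm, an extraembryonic layer, shares many of these factors together with HNF4A and a set of secreted lipoproteins, and anterior foregut endoderm later gives rise to the pharynx, thyroid and lung.

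Levels are given as CPM, counts relative to the library total and scaled between libraries, always library 1 and then library 2 of a stage. The contrast is the log2 difference between DE and the average of the PSC and AFE means, tested with edgeR's quasi-likelihood model and Benjamini-Hochberg adjustment over all tested genes, and a gene is called at an adjusted p under 0.05. Total counts ran from 36004372 to 67566269 per library, and multiples of 4 made up between 46.4% and 50.7% of each library's nonzero counts up to 12. How many counts a read pair gave is not known from the table, and a floor of 12 counts per library is used here, which corresponds to 0.15 to 0.357 CPM. Correlations of log CPM between the libraries of a stage lay between 0.962 and 0.982. In bulk RNA, fewer cells of a type and less RNA per cell cannot be told apart.

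The 4 genes put forward as markers of the stage were APOA1, HNF4A, SOX17 and NPPA, and each was higher in both DE libraries than in every PSC and AFE library. SOX17, the endodermal SRY-box factor (chromosome 4, 76854150 to 76857148), measured 0.298 and 0.802 CPM in PSC, 251 and 228 in DE and 16.5 and 15 in AFE. HNF4A, a nuclear receptor of liver, gut and visceral endoderm (chromosome 17, 46783777 to 46847498), measured 0 and 0.683 CPM in PSC, 279 and 309 in DE and 5.6 and 4.19 in AFE. APOA1, which forms the scaffold of HDL particles (chromosome 9, 44216392 to 44218713), measured 31.3 and 28.6 CPM in PSC, 13444 and 13162 in DE and 256 and 272 in AFE. NPPA, the atrial natriuretic peptide gene (chromosome 6, 71918845 to 71921405), had no count in PSC, AFE or LPO and 81.1 and 42.5 CPM in DE. The DE libraries of NPPA themselves lay nearly 2-fold apart. The contrast was 7.23 ± 0.06 (SE) for APOA1 (adjusted p = 1.2e-09), 7.88 ± 0.38 for HNF4A (3.8e-06) and 6.37 ± 0.20 for SOX17 (6.0e-07). For NPPA, whose adjusted p was 8.0e-05, the fold was at least 189 against PSC and at least 312 against AFE, taking 12 counts per library as the floor. Since these markers were proposed with earlier results of the same files in view, their levels describe the stage and are no independent check of its label.

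Endodermal transcription factors besides the markers, such as GATA4 and FOXA2, showed the same shape, while several other genes often used to recognise definitive endoderm did not. Of the endoderm specification list, which includes the marker SOX17, 11 of 20 tested members were higher and 1 lower than both flanks, against 16.4% and 11.2% of all tested genes, and the list's median contrast was 2.83 against 0.06 over all genes. GATA4, a zinc-finger factor of endoderm and heart, measured 0.298 and 0.832 CPM in PSC, 496 and 519 in DE and 52.1 and 48.5 in AFE, a contrast of 6.60 ± 0.17 (adjusted p = 2.4e-07). The forkhead protein FOXA2, which opens closed chromatin at endodermal enhancers, measured 8.63 and 10.2 CPM in PSC, 297 and 292 in DE and 96.8 and 87.1 in AFE. GATA4 was thus 10.1-fold and FOXA2 3.2-fold higher than in AFE. HHEX, a homeobox factor of the anterior endoderm, had 72.6 and 65.5 CPM in DE and at most 2.77 in the flanks, whereas GATA6 was 1.36-fold above AFE (121 and 128 against 88.9 and 93.9 CPM), and its test against AFE alone missed the threshold (adjusted p = 0.0979). EOMES, the T-box factor that starts the endodermal programme, measured 28.8 and 34 CPM in PSC, 63.2 and 58.4 in DE and 0 and 0 in AFE, so it was listed at 0 from AFE on. LIN28A, SALL4 and TERT, which belong to the pluripotency list, were also higher in DE than in both flanks, with SALL4 at 3.6 and 1.6 CPM in PSC, 43.8 and 35 in DE and 4.18 and 5.07 in AFE.

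Against these, the chemokine receptor CXCR4, commonly used to sort definitive endoderm, measured 12.2 and 13.6 CPM in PSC, 30.9 and 22.1 in DE and 35.6 and 34 in AFE and was not called (adjusted p = 0.12). CER1, a secreted NODAL and WNT inhibitor, was at 0.692 and 0.42 CPM in DE against 23 and 21.2 in PSC, with an adjusted p of 0.17. MIXL1, a mesendodermal homeobox gene, was lower in DE than in both flanks, at 2.18 and 2.32 CPM in PSC, 1.04 and 0.14 in DE and 6.59 and 8.09 in AFE (adjusted p = 0.013). Its test against PSC alone missed the threshold (adjusted p = 0.0559), and its fold below PSC was 3.82, or 2.17 without DE library 2 and 16.1 without DE library 1. Of the pluripotency factors, POU5F1 fell from 4453 and 5156 CPM in PSC to 390.5 and 383 in DE and 1.03 and 0.8 in AFE. Because the average of the flanks is taken on the log scale, such a steep decline gives POU5F1 a contrast of 2.54 although DE lay between its flanks. The definition therefore also asks that the libraries not overlap. NANOG fell from 46 and 44.1 to 2.58 and 5.12 CPM in DE and 0.0653 and 0 in AFE, and its contrast was not called (adjusted p = 0.051).

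The contrast alone called 8465 genes (43.8% of those tested), 5055 higher (26.1%) and 3410 lower (17.6%). Of these, 1876 of the higher and 1239 of the lower genes did not clear all 4 flanking libraries. Both DE libraries stood above all 4 flanking libraries in 3710 genes (19.2%) and below all 4 in 2627 (13.6%). The overlap of these conditions is the transient programme of 3179 higher (16.4%) and 2171 lower (11.2%) genes, so that a lack of overlap with the flanks is part of the definition for every member. Tests of DE against each flank separately, with both called, gave 1862 higher (9.62%) and 1335 lower (6.9%). Among the members named in the text, GATA6, MIXL1, LPL, MVK, EBP, AMBP, F10, AHSG, SOX7, CDH5, PECAM1, HHIP, SUFU, DISP1, KLF4, NKX2-3, PAX9, DNAJB1, TRIB3 and SESN2 missed the threshold against one of the flanks. DE against PSC alone called 5962 genes higher (30.8%) and 4453 lower (23%), and DE against AFE 3371 higher (17.4%) and 3467 lower (17.9%). With 2 libraries against 4 an exact permutation test of a single gene cannot go below p = 0.0667. The median log2 distance to the nearer flank was 0.73 for higher and -0.56 for lower genes. At least 2-fold past the nearer flank lay 1241 higher (6.41%) and 566 lower (2.93%) genes, where the last gene inside had a log2 gap of 1.0002 and the first outside 0.9996 on the higher side. AFE was the nearer flank for 942 of the 1241 higher genes and PSC for 299. These 1241 genes held 9.77% and 9.41% of all counts in DE, 1.30% and 1.20% in PSC and 2.18% and 2.21% in AFE.

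**Figure D1:**
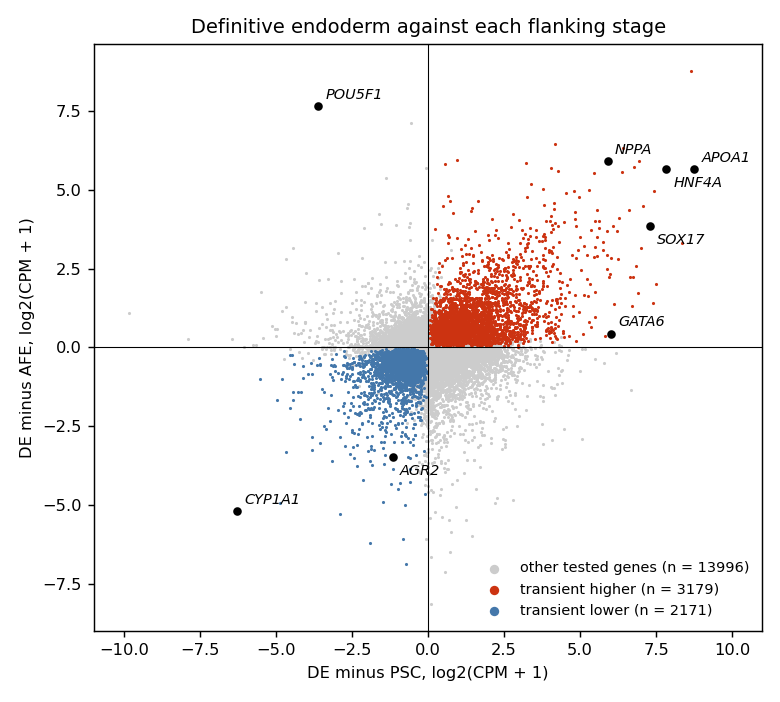
Each point is a tested gene, placed by the difference of DE minus PSC (x axis) and DE minus AFE (y axis) in the stage mean of log2(CPM + 1). Coloured points are the 3179 higher and 2171 lower genes of the transient programme, in the upper right and lower left. The 4 markers lie in the upper right, whereas POU5F1, between its flanks, lies in the upper left.

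Lipoprotein genes stood out by their level: APOA1 and APOE had the highest mean CPM in DE, a scale not corrected for gene length. This ranking covers the genes at least 2-fold higher than in both flanks that have a symbol and 5 FPKM or more. Of the apolipoprotein and lipid export list, 10 of 20 tested members were higher and 2 lower, with a median contrast of 1.44. These shares were 50% and 10%, against 16.4% and 11.2% of all genes, so the lower share was near that of all genes. The 20 tested members of the list summed to 789 and 832 CPM in PSC, 23043 and 22833 in DE and 2071 and 2202 in AFE. Most of that sum came from APOA1 and from APOE, the lipid-carrying ligand of the LDL receptor family, which measured 519 and 585 CPM in PSC, 9257 and 9342 in DE and 1483 and 1594 in AFE (contrast 3.34 ± 0.06, adjusted p = 6.8e-08). APOE was 6.04-fold higher than in AFE, its nearer flank, and APOA1 50.3-fold. APOC3, an inhibitor of lipoprotein lipase, had no count in either flank or in LPO and 17.8 and 12.5 CPM in DE, at least 46.3-fold above PSC and at least 76.5-fold above AFE (adjusted p = 9.4e-05). APOA5, APOA4, APOC3 and APOA1 follow one another on chromosome 9 with no other listed gene between, 20623, 6988 and 2859 bases apart, and all 4 were in the 2-fold higher set. APOM, another high-density lipoprotein component, was also higher (16.2 and 13.9 CPM in DE), but lies on the strand opposite to a gene with 4044% of its count, so its level is uncertain.

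APOB and MTTP were outside the programme. APOB, the structural protein of triglyceride-rich particles, stayed at or below 0.546 CPM in all 6 libraries, and MTTP, which loads lipid onto APOB, was higher in DE than in PSC but highest in AFE, with 2.03 and 1.84 CPM in PSC, 17.3 and 14.8 in DE and 127 and 129 in AFE. Both were picked out here after their values were seen. LPL and ABCG1, a lipase and a sterol exporter, were the lower members, LPL at 1.16 and 1.65 CPM in DE and ABCG1 at 0.432 and 0.28. The call of ABCG1 was lost without DE library 2 (adjusted p = 0.0535). NPC2, the soluble carrier that moves cholesterol out of lysosomes, was among the most abundant genes of the programme, with 137 and 142 CPM in PSC, 1930.4 and 1861 in DE and 180.0 and 187 in AFE and 277 and 279 in LPO, 10.3-fold above AFE (adjusted p = 1.5e-08). Of cholesterol synthesis genes, 4 of 19 tested members were higher and 1 lower (21.1% and 5.26%, against 16.4% and 11.2% of all genes). The higher ones were MVD, SREBF2, FDFT1 and MVK, and the lower one was EBP. FDFT1 shares its locus with an opposite-strand gene holding 52.3% of its count.

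**Figure D2:**
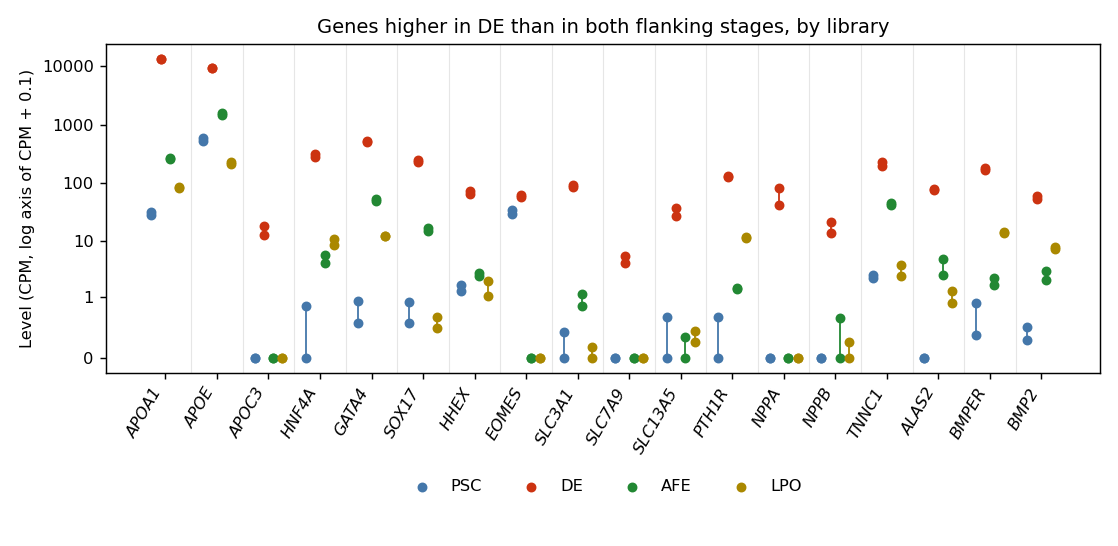
Points are CPM per library on a log axis of CPM + 0.1 (y axis) for 18 genes higher in DE than in both flanks (x axis), with a colour per stage and a line joining the 2 libraries. By the definition, the DE points lie above all PSC and AFE points in every gene drawn, up to 13444 CPM for APOA1, and NPPA and APOC3 sit at 0 in the other stages.

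Some liver-type transcription factors were higher in DE than in both flanks. Of the list, 9 of 21 tested members were higher and 0 lower (median contrast 1.02). The higher share was 42.9%, against 16.4% of all genes. The higher members included TBX3, a T-box repressor of the early liver bud, with 0.347 and 0.119 CPM in PSC, 73.3 and 83.9 in DE and 10.9 and 9.32 in AFE, and RXRA, the partner of many nuclear receptors, with 95.8 and 108 CPM in DE and 73.9 and 75.5 in AFE. Of 26 plasma protein genes, 5 were higher, HABP2, SERPINF2, AMBP, F10 and AHSG, and 0 lower (19.2% higher, near the 16.4% of all genes; median contrast 0.40). Of these 5, HABP2 and SERPINF2 passed the test against each flank. HABP2, a serine protease of plasma, had no count in PSC, 76.2 and 92.7 CPM in DE and 0.0979 and 0.0333 in AFE, with the caveat that an opposite-strand gene overlaps it with 36.7% of its count. SERPINF2, the plasmin inhibitor, measured 12.5 and 7.8 CPM in DE and 3.79 and 3.82 in AFE, and AMBP, the precursor of alpha-1-microglobulin, 8.51 and 5.17 in DE and 4.67 and 4.24 in AFE. Against AFE alone the adjusted p of AMBP was 0.253. TTR and SERPINA1, secreted products of visceral endoderm and liver, had no count in DE, and ALB reached at most 0.294 CPM there.

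Visceral endoderm and definitive endoderm overlap in their markers, so the extraembryonic endoderm list was looked at beside them. Of the list, 10 of 25 tested members were higher and 1 lower (median contrast 1.97), and the summed level was 1073 and 1117 CPM in PSC, 3527 and 3606 in DE and 2956 and 3033 in AFE. The higher and lower shares were 40% and 4%, against 16.4% and 11.2% of all genes. PTH1R, the parathyroid hormone receptor expressed in primitive and parietal endoderm, measured 0.397 and 0 CPM in PSC, 124 and 129.9 in DE and 1.45 and 1.43 in AFE, 88.1-fold above AFE (contrast 7.83 ± 0.31, adjusted p = 1.6e-06). PDGFRA, a receptor of primitive endoderm and of mesoderm, measured 0.298 and 0 CPM in PSC, 72.8 and 59.5 in DE and 8.5 and 7.12 in AFE. Of other defining members, chosen after their values were seen, CUBN and TTR had no count in DE, and LRP2 was higher in AFE (50.6 and 49.3 CPM) than in DE (6.69 and 8.78). SOX7, also chosen so, was at 2.02 and 1.33 CPM in DE. It was among the higher members but missed the threshold against a flank alone. AFP, AMN and RHOX5, also on the list, had no tested entry under these symbols, so their levels are not known here. FGFR2 was the lower member, at 93 and 100.1 CPM in PSC, 42.8 and 42.6 in DE and 57.9 and 58.4 in AFE. The part of extraembryonic cells in the levels of HNF4A and the apolipoproteins was not tested.

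Natriuretic peptides and heart-type genes formed another group, with 13 of 26 tested members higher and 2 lower and a median contrast of 2.13. These shares were 50% and 7.69%, against 16.4% and 11.2% of all genes. NPPB, the B-type natriuretic peptide gene 8977 bases from NPPA on chromosome 6, had no count in PSC, 21.2 and 13.6 CPM in DE and 0.375 and 0 in AFE (adjusted p = 7.5e-04). Like NPPA, it was higher in the first DE library. TNNC1, troponin C of slow and cardiac muscle, measured 2.28 and 2.55 CPM in PSC, 228 and 196 in DE and 42.6 and 45.8 in AFE, and MYL3, a myosin light chain, 1.36 and 1.22 CPM in PSC, 30.9 and 30.5 in DE and 7 and 7.35 in AFE. TNNC1 was 4.8-fold and MYL3 4.28-fold above AFE. HAND1, a basic helix-loop-helix factor of lateral mesoderm and trophoblast, and MEF2C, a muscle transcription factor, were higher, HAND1 at 37.4 and 19.4 CPM in DE and MEF2C at 12.4 and 9.53. The lower members both act on natriuretic peptides: CORIN, which cleaves their precursors, had 1.71 and 1.19 CPM in PSC, 0.415 and 0.21 in DE and 0.898 and 0.95 in AFE, and NPR3, their clearance receptor, 1.64 and 1.96 CPM in PSC, 0 and 0.14 in DE and 7.33 and 4.69 in AFE. The adjusted p was 0.0022 for CORIN and 0.0077 for NPR3, and both missed the threshold with limma on log2(FPKM + 1), at 0.0729 and 0.0722.

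Other genes that define heart muscle were low or higher in AFE. TNNT2, cardiac troponin T, reached at most 1.31 CPM in DE and was not called (adjusted p = 0.19), ACTC1 was at 2.08 and 1.4 CPM, and MYH6 and MYH7, the cardiac myosin heavy chains, were higher in AFE than in DE. MYH6 measured 44.7 and 50 CPM in AFE and 21.2 and 19.1 in DE, and MYH7 193 and 200.3 in AFE and 5.57 and 6.85 in DE. TBX5 had no count in DE. These were singled out after their values were seen. The list summed to 93.8 and 88 CPM in PSC, 717 and 603 in DE and 523 and 538 in AFE, and the part of cardiac or other mesodermal cells in NPPA and NPPB was not tested.

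Among markers of blood and vessels, 12 of 19 tested members were higher and 0 lower (median contrast 2.70), with a summed level of 66.9 and 67.6 CPM in PSC, 282 and 238 in DE and 64.1 and 65.5 in AFE. The higher share was 63.2%, against 16.4% of all genes. ALAS2, the erythroid enzyme that starts haem synthesis, had no count in PSC, 77.2 and 75.8 CPM in DE and 2.51 and 4.87 in AFE, 20.7-fold above AFE (adjusted p = 1.0e-05). KDR, the VEGF receptor of endothelium and its mesodermal precursors, measured 0.62 and 0 CPM in PSC, 79.9 and 43.3 in DE and 7.2 and 6.8 in AFE, and GATA2, a factor of blood progenitors, 16.4 and 15.2 CPM in DE against 8.23 and 6.62 in AFE. ALAS2 did not come with the globins that could be looked at: HBE1 had no count in DE and HBZ 0.519 and 0.333 CPM, and the leukocyte gene PTPRC had none. The globins HBA1 and HBB had no tested entry under these symbols. Of the genes that define endothelium, CDH5 was at 3.04 and 2.14 CPM in DE and PECAM1 at 5.9 and 5.54. Both were among the higher members, although each missed the threshold against a flank alone. The part of blood or endothelial cells in these levels was not tested. Of the other foreign cell types, the mesenchyme list had 7 of 23 tested members higher and 0 lower (median contrast 1.91, summed level 914 and 942 CPM in PSC, 1903 and 1554 in DE and 909.7 and 935 in AFE), including CDH2, PDGFRA and VIM. Its higher share was 30.4%, against 16.4% of all genes. Trophoblast and amnion had 2 of 15 tested members higher, GATA3 and HAND1, and 2 lower, IGFBP3 and GABRP. Each share was 13.3%, against 16.4% higher and 11.2% lower among all genes. The summed level of this list was 136 and 127 CPM in PSC, 369.9 and 403 in DE and 329 and 357 in AFE. The neural list had CDH2 alone, 6.25% of its 16 tested members (summed level 849 and 827 CPM in PSC, 919.9 and 798 in DE and 359 and 355 in AFE). Their part in the results was not tested either.

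Of the signalling pathways, BMP gave the highest share of higher genes, 17 of 25 tested members higher and 0 lower (68%, against 16.4% of all genes, median contrast 2.67). The higher members spanned ligands, the antagonist BMPER and target genes. BMPER, a secreted protein that binds BMPs outside the cell, measured 0.769 and 0.149 CPM in PSC, 167 and 179 in DE and 2.2 and 1.65 in AFE, 89.8-fold above AFE (contrast 7.48 ± 0.26, adjusted p = 8.8e-07). Among ligands, named after their values were seen, BMP2 measured 0.0992 and 0.238 CPM in PSC, 59.5 and 52.4 in DE and 2.07 and 2.98 in AFE and BMP4 1.29 and 0.832 CPM in PSC, 247 and 165 in DE and 44.8 and 39.7 in AFE. The inhibitory SMAD6, itself a BMP target, measured 2.21 and 2.35 CPM in PSC, 386 and 465 in DE and 50.2 and 42.9 in AFE, and the target genes ID2 and ID3, inhibitors of basic helix-loop-helix factors, stood at 279.6 and 298 CPM for ID2 and 595 and 632 for ID3 in DE. SMAD6 was 9.14-fold, ID2 4.78-fold and ID3 3.16-fold above AFE, the nearer flank of each. The signal-transducing SMAD5 was not called (34.2 and 40.1 CPM in DE, adjusted p = 0.39), and the antagonist CHRD was lower than in AFE, with 5.53 and 6.29 against 23.1 and 23.4 CPM.

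The NODAL and TGF-beta list had 3 of 21 tested members higher and 1 lower (14.3% and 4.76%), against 16.4% and 11.2% of all genes. Without DE library 1 the list had 5 higher members and without DE library 2 it had 4. ACVR1B, a receptor of NODAL and activin, rose to 46.6 and 46.7 CPM from 9.47 and 10.2 in PSC and stood 1.93-fold above AFE. TGFB3 was higher as well (31.6 and 35.3 CPM), but overlaps an opposite-strand gene with 120.0% of its count. The receptor TGFBR2 was the lower member, at 2.51 and 2.38 CPM in PSC, 0.917 and 1.1 in DE and 4.91 and 3.47 in AFE. NODAL itself and its inhibitor LEFTY2, looked up after the rest, were highest in PSC, LEFTY2 at 2461 and 2694 CPM there and 1.66 and 1.87 in DE.

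WNT genes moved in both directions, 6 of 23 tested members higher and 4 lower (26.1% and 17.4%, against 16.4% and 11.2% of all genes). DKK1, a secreted antagonist of WNT receptors, measured 0 and 0.119 CPM in PSC, 30.2 and 16.3 in DE and 0.457 and 0.467 in AFE, and NKD2, an intracellular WNT inhibitor, 3.45 and 3.42 CPM in PSC, 71.9 and 73.4 in DE and 39.5 and 42.6 in AFE. The secreted antagonist SFRP2 was lower, at 39 and 35 CPM in PSC, 1.04 and 0.473 in DE and 4.16 and 4.94 in AFE, and so was the WNT-responsive receptor TNFRSF19, at 18.6 and 16.1 CPM in PSC, 6.59 and 6.66 in DE and 25.2 and 25.2 in AFE. Of FGF and ERK genes, 7 of 26 tested members were higher and 5 lower (26.9% and 19.2%). The receptors FGFR3 and FGFR4 were higher, with FGFR3 at 18.1 and 14.6 CPM in PSC, 194 and 171 in DE and 22.4 and 20 in AFE and FGFR4 at 61.2 and 61.2 CPM in DE, whereas FGFR2 and the ligand FGF2 were lower. FGFR3 was 11.2-fold above PSC and 8.61-fold above AFE, and FGF2 measured 18.2 and 18.2 CPM in PSC, 6.55 and 5.33 in DE and 30.1 and 33.5 in AFE.

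Members higher than both flanks made up 18.8% of the Hedgehog and 15.8% of the retinoid list, near the 16.4% of all genes. Of the Hedgehog list, 3 of 16 tested members were higher and 4 lower (median contrast -0.32). GLI2, a transcriptional effector of the pathway, measured 17.2 and 18.3 CPM in PSC, 0.899 and 0.491 in DE and 2.87 and 3.57 in AFE, and the receptor and target PTCH1 33.7 and 35.9 CPM in PSC, 29.8 and 27.3 in DE and 88.1 and 86.9 in AFE. The higher members HHIP, SUFU and DISP1 lay at most 1.47-fold past the nearer flank, and each missed the threshold against that flank alone (adjusted p = 0.0762, 0.261 and 0.216). Of retinoid genes, 3 of 19 tested members were higher and 3 lower (median contrast -0.74). CRABP2, a cytoplasmic carrier of retinoic acid, measured 467 and 472 CPM in PSC, 136 and 80.6 in DE and 1968 and 1908 in AFE, and the retinoic acid receptor RARG 30.2 and 27.5 CPM in PSC, 11.1 and 7.03 in DE and 57.6 and 59.7 in AFE. CRABP2 was 17.9-fold and RARG 6.47-fold higher in AFE than in DE. CRABP1, its relative, had 0 and 0.14 CPM in DE against 2.78 and 3.18 in PSC. RXRA, RDH10 and ALDH1A2, the last a retinoic acid synthesising enzyme at 2.39 and 1.59 CPM in DE, were the higher members, and RDH10 was at 4.79 and 8.88 CPM in DE. Without DE library 2 the adjusted p of RDH10 was 0.0668.

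**Figure D3:**
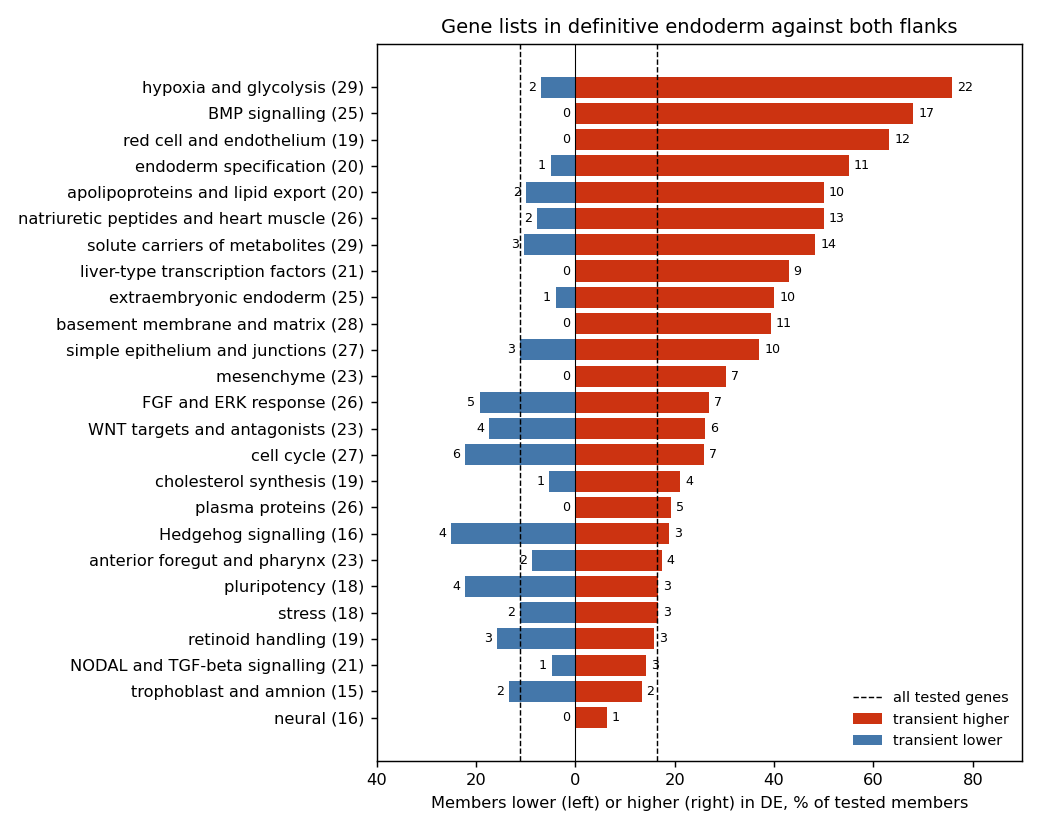
Bars give, for each gene list, the percent of tested members higher (right) or lower (left) in DE than in both flanks, and dashed lines mark the 16.4% and 11.2% of all tested genes. BMP signalling (68%) and hypoxia and glycolysis (75.9%) reach furthest to the right.

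Transporters of amino acids, sugars and other metabolites were a further part of the programme. Of the solute carrier list, 14 of 29 tested members were higher and 3 lower (median contrast 1.55). These shares were 48.3% and 10.3%, against 16.4% and 11.2% of all genes, so the lower share was near that of all genes. SLC1A1, a glutamate transporter, measured 4.49 and 5.62 CPM in PSC, 92.7 and 103 in DE and 5.06 and 4.1 in AFE, 19.4-fold above PSC and 21.4-fold above AFE. SLC13A5, a citrate importer of liver, had 0.397 and 0 CPM in PSC, 37.7 and 27.2 in DE and 0.131 and 0 in AFE, and SLC6A19, a neutral amino acid transporter of gut and kidney, 0.298 and 0.119 CPM in PSC, 24.9 and 16.3 in DE and 0 and 0 in AFE. The nucleoside transporter SLC28A3 had 40.8 and 28.5 CPM in DE and at most 0.843 in the flanks. The adjusted p of SLC13A5, SLC6A19 and SLC28A3 was 5.0e-05, 2.3e-04 and 9.6e-05. SLC3A1, the heavy chain of the cystine transporter, was at 0.174 and 0 CPM in PSC, 84.8 and 93.3 in DE and 0.669 and 1.17 in AFE, and its light chain SLC7A9, looked up after the rest, had no count in either flank and 4.08 and 5.5 CPM in DE. PDZK1, a scaffold that holds transporters at the brush border, had 51.4 and 35.6 CPM in DE and at most 0.4 in the flanks. SLC3A1, PDZK1 and the light chain SLC7A7 (57 and 65.2 CPM) each overlap an opposite-strand gene holding 171%, 286% and 1042% of their count, so their levels are uncertain. SLC1A4, SLC1A5 and SLC10A1, carriers of neutral amino acids and of bile acids, were lower, with SLC1A5 at 383 and 399 CPM in PSC, 154 and 200.5 in DE and 309 and 330.3 in AFE. The glucose transporter SLC2A1 and the heavy chain SLC3A2 were among the most abundant higher genes, SLC2A1 at 1774 and 1534 CPM in DE and SLC3A2 at 1715 and 2037.

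Glycolytic and hypoxia-inducible genes rose together, 22 of 29 tested members higher and 2 lower, with a median contrast of 1.33. These were 75.9% and 6.9% of the list, against 16.4% and 11.2% of all genes. LDHA, which reduces pyruvate to lactate, measured 267 and 275 CPM in PSC, 2932 and 2051 in DE and 1128 and 1104 in AFE, and SLC2A1 72.7 and 64.3 CPM in PSC, 1774 and 1534 in DE and 429 and 416 in AFE. ADM, the vasodilator peptide adrenomedullin, measured 0.248 and 0.386 CPM in PSC, 81.3 and 73.7 in DE and 13.5 and 12.3 in AFE, and VEGFA, the vascular growth factor, 3.13 and 3 CPM in PSC, 81.8 and 73.8 in DE and 49.2 and 47.3 in AFE. DE was 2.23-fold above AFE for LDHA, 3.92-fold for SLC2A1, 6.02-fold for ADM and 1.61-fold for VEGFA. In LPO, ADM and VEGFA were higher still, ADM at 127 and 127 CPM and VEGFA at 554 and 560.1. EGLN3 and CA9, an oxygen sensor and a carbonic anhydrase of the same response, were the lower members, with EGLN3 at 152 and 141 CPM in PSC, 28.3 and 13.9 in DE and 72.1 and 76.8 in AFE and CA9 at 34.5 and 37.5 CPM in PSC, 14.5 and 15.3 in DE and 20.4 and 22.3 in AFE.

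The 2 DE libraries differed along this list. DE library 1 was above library 2 in 28 of the 29 tested members, including all 22 higher ones, with a median log2 difference of 0.51 against 0 over all genes. Without DE library 1, 21 members were higher than both flanks, and without DE library 2, 24. The list's summed level was 9377 and 8581 CPM in PSC, 29712 and 22330.2 in DE and 20150.1 and 20370.0 in AFE, with DE library 2 close to AFE.

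**Figure D4:**
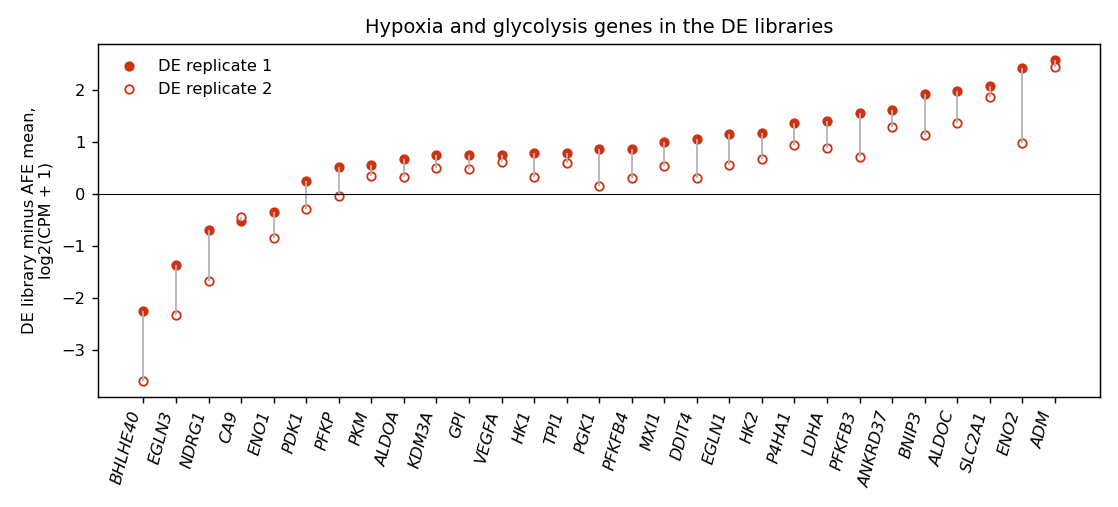
For each of 29 hypoxia and glycolysis genes (x axis), the filled point is DE library 1 and the open point DE library 2, as the log2(CPM + 1) difference from the AFE mean (y axis). The filled point lies above the open one in 28 of the 29 genes, CA9 being the exception.

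Keratins, junction proteins and matrix genes were part of the programme, with AFE often close to DE. Of simple epithelium genes, 10 of 27 tested members were higher and 3 lower (median contrast 1.02). These shares were 37% and 11.1%, against 16.4% and 11.2% of all genes, so the lower share was near that of all genes. KRT8, a keratin of simple epithelia, measured 1917 and 1774 CPM in PSC, 27684 and 29354 in DE and 14132 and 14655 in AFE, and KRT19 202 and 187 CPM in PSC, 7667 and 8311 in DE and 5002 and 5226 in AFE. They were 1.98-fold and 1.56-fold above AFE but 15.4-fold and 41.1-fold above PSC. CDH2, the N-cadherin of mesoderm and early endoderm, was higher at 36.1 and 36.9 CPM in PSC, 273 and 289.9 in DE and 76.8 and 78.2 in AFE, while CDH1, E-cadherin, looked up beside it, measured 676 and 688 CPM in PSC, 393 and 412 in DE and 393 and 383 in AFE, with DE close to AFE. VIM, an intermediate filament of mesenchyme, measured 808 and 836 CPM in PSC, 1165 and 949 in DE and 199 and 202 in AFE. MAL2 and OVOL2, an apical trafficking protein and an epithelial zinc-finger factor, were lower, with OVOL2 at 23.1 and 13.9 CPM in PSC, 1.63 and 2.08 in DE and 21 and 27.5 in AFE. Of matrix genes, 11 of 28 tested members were higher and 0 lower (39.3% higher, against 16.4% of all genes). FN1, fibronectin, measured 33.2 and 30.2 CPM in PSC, 6061 and 5849 in DE and 1470.2 and 1458 in AFE (contrast 4.79 ± 0.05, adjusted p = 3.6e-09), and LAMA1, the laminin chain of the early embryo, 41 and 45.6 CPM in PSC, 326 and 337 in DE and 78.7 and 74.8 in AFE. FN1 was 4.07-fold and LAMA1 4.32-fold above AFE, whereas COL18A1, a basement membrane collagen, was only 1.14-fold above it. FSCN1 and ANXA2, an actin-bundling protein and a membrane-binding annexin, were among the most abundant higher genes, FSCN1 at 1682 and 1767 CPM in DE and ANXA2 at 1679 and 1809.

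The lower genes with the widest gaps to the flanks have varied known roles. CYP1A1, an oxidase induced through the aryl hydrocarbon receptor, measured 693 and 634 CPM in PSC, 6.87 and 8.29 in DE and 302 and 321 in AFE and 6.48 and 5.29 in LPO, so both flanks were high, AFE by 41.1-fold (contrast -5.91 ± 0.14, adjusted p = 1.9e-07). SOX2, a factor of pluripotency and later of foregut, measured 6.1 and 4.43 CPM in PSC, 0.121 and 0.0701 in DE and 5.35 and 6.6 in AFE and 30.3 and 30.7 in LPO (adjusted p = 5.9e-06). AGR2, a protein disulfide isomerase of secretory epithelium, had 1.93 and 0.951 CPM in PSC, 0.138 and 0 in DE and 10.8 and 10.9 in AFE, and reached 728 and 740.4 CPM in LPO. MAP2, a microtubule protein of neurons, measured 14.4 and 11.1 CPM in PSC, 1.12 and 0.596 in DE and 70.9 and 68.7 in AFE, and LSAMP, a neuronal cell adhesion molecule, 38.3 and 39.4 CPM in PSC, 1.71 and 1.94 in DE and 23.7 and 28.2 in AFE. MAP2 was 14.9-fold higher in PSC and LSAMP 14.2-fold higher in AFE than in DE. The steroid enzyme CYP17A1 had 0.138 and 0 CPM in DE and 13 and 10.9 in AFE, and the adenosine receptor ADORA1 0.104 and 0.263 in DE and 11.1 and 13.6 in AFE. CNMD, the cartilage protein chondromodulin, had 0.346 and 0 CPM in DE and 15.7 and 14 in AFE, and C4orf19 1.52 and 1.16 in DE and 20.4 and 24.4 in AFE. IGFBP3, a binding protein of insulin-like growth factors, measured 34.7 and 34.1 CPM in PSC, 2.18 and 0.946 in DE and 18.3 and 15.3 in AFE and 171 and 173 in LPO.

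**Figure D5:**
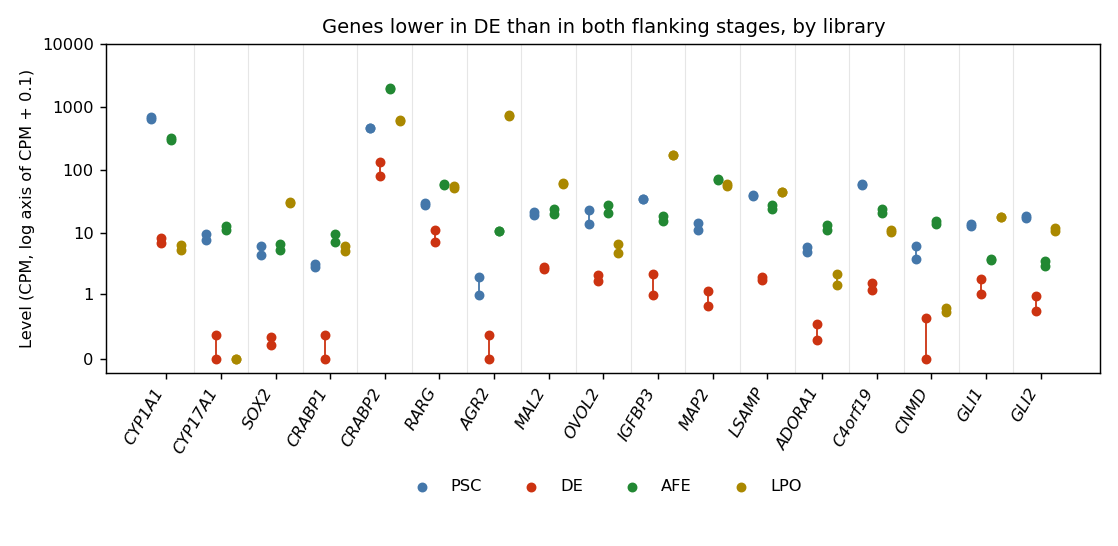
Points are CPM per library on a log axis of CPM + 0.1 (y axis) for 17 genes lower in DE than in both flanks (x axis), with a colour per stage and a line joining the 2 libraries. By the definition, the DE points lie below all PSC and AFE points, and LPO lies near DE for CYP1A1 and CYP17A1 and above both flanks for AGR2 and IGFBP3.

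Shares of higher members in the pluripotency (16.7%), foregut (17.4%) and stress (16.7%) lists were near the 16.4% of all genes. Of pluripotency genes, 3 of 18 tested members were higher and 4 lower, the lower ones being SOX2, KLF5, KLF4 and ESRRB, with KLF5 at 23.2 and 23.1 CPM in PSC, 5.05 and 3.38 in DE and 8.32 and 7.4 in AFE. Of foregut and pharynx genes, 4 of 23 tested members were higher and 2 lower (median contrast -0.52), the higher ones including TBX2, FOXJ1 and NKX2-3 and the lower ones SOX2 and PAX9. Foregut factors such as NKX2-1 and HOXB1, looked up after the rest, had no count in PSC or DE. In AFE, NKX2-1 reached 20.2 and 19.5 CPM and HOXB1 24.2 and 21.6. Of cell cycle genes, 7 of 27 tested members were higher and 6 lower (25.9% and 22.2%, against 16.4% and 11.2% of all genes). The mitotic kinase PLK1 was higher, at 110.4 and 94.5 CPM in PSC, 201 and 225 in DE and 149.7 and 153 in AFE, and so were cyclins CCND1 and CCND2, while the replication clamp PCNA was lower, at 267 and 299.5 CPM in PSC, 59.7 and 67.9 in DE and 96.3 and 95 in AFE, and the replicative helicase subunit MCM2 as well (215 and 205 CPM in DE). MCM2 and PAX9 overlap opposite-strand genes with 22.3% and 47.5% of their counts, and PAX9 missed the threshold with limma on log2(FPKM + 1) (adjusted p = 0.0898). Of stress genes, 3 of 18 tested members were higher and 2 lower, with the damage-induced GADD45A at 2.63 and 2.29 CPM in PSC, 251 and 191 in DE and 40.4 and 45.5 in AFE. ATF3, DNAJB1 and GADD45A were the higher and TRIB3 and SESN2 the lower members, and DNAJB1 and SESN2 lay within 1.17-fold of the nearer flank, with SESN2 losing its call without DE library 1 (adjusted p = 0.0558). Their place in the programme depended on the scaling: DNAJB1 no longer cleared the flanking libraries with DESeq2 size factors, and neither gene did with no scaling beyond the total count.

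In the organoids that follow AFE, levels of these genes were set beside DE. The genes were chosen for high or low DE values, so shares below or above DE are partly fixed by that choice and are given as a description. Of the 1241 genes at least 2-fold higher in DE, 797 (64.2%) had both LPO libraries below both DE libraries, 314 had both above and 130 overlapped. In 448 of the 1241 both LPO libraries were at or below the highest flanking library. Of the 566 lower genes, 449 (79.3%) had both LPO libraries above both DE libraries, and 51 had both below. Among all tested genes, both LPO libraries lay below both DE libraries in 39.2% and above them in 45.5%. Genes that came back in LPO at or above the DE level included PDGFRA (73.9 and 81.9 CPM), TBX2 (34 and 33.5) and NID2, a basement membrane linker (86.7 and 91), while SOX17 (0.399 and 0.227), APOE (214 and 229) and TNNC1 (3.8 and 2.45) were below DE. The share of counts in the 1241 genes was 5.37% in both organoid libraries. The DE libraries lay within 1.5-fold of each other in 933 of the 1241 genes, with library 1 higher in 207 of the rest and library 2 in 101. The comparison was made within a single table, and the labels name no batch.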

How the data were processed

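Poly(A) RNA of 8 libraries was sequenced as read pairs from dUTP-marked libraries, per the labels' protocols. DESeq2, edgeR, StringTie 2.1.6, HISAT2 2.2.1 and cutadapt 1.9 appear in the submitters' processing notes without their roles, and the genome build and the strand setting of the counting are not given in the sources used here. The deposited table of 25578 genes holds the authors' expected counts (estimated counts, all whole, so not rounded) and FPKM computed by the authors. Its columns named EPSC and Organoid were matched to PSC and LPO through the labels. Coordinates are those of the table. Lists were matched by symbol, so none of the 10013 genes without a symbol could count as a list member. A further 130 symbols were filled in from a table of gene names.

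R 4.3.3 with edgeR 4.0.16 was used, with limma 3.58.1 and DESeq2 1.42.0 for alternatives, and Python 3.11.15 with matplotlib 3.10.9 for figures. After filterByExpr, which kept 19346 genes, TMM scaling was applied. A model with a mean per stage was fitted to all 8 libraries (4 residual degrees of freedom), and glmQLFTest tested DE against the average of PSC and AFE, and against each. Scripts were tested on simulated data. The SE given with a contrast was derived from its test, as the absolute log2 contrast divided by the square root of the F statistic. CPM are TMM-scaled, and the distance to the nearer flank is on log2 CPM with a prior count of 2. Folds are ratios of mean CPM, and where a flank had no count the floor was 12 counts per library. This covers counting error only.

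The genes, the 25 lists (568 symbols, 526 in the table, 506 tested) and the rules were chosen with earlier results of these data known. Genes are named as the 4 markers, the 12 higher and 10 lower genes with a symbol, 5 FPKM or more and the widest gap to the nearer flank, the 8 higher genes of highest CPM at least 2-fold past it, with the same symbol and FPKM limits, and per list up to 3 higher and 2 lower members of smallest adjusted p. Genes named outside this rule were chosen after their values were seen: NODAL, EOMES, GATA6, HHEX, CXCR4, CER1, POU5F1, NANOG, APOA5, APOA4, APOB, MTTP, MVK, F10, AHSG, TTR, SERPINA1, ALB, CUBN, LRP2, SOX7, TNNT2, ACTC1, MYH6, MYH7, TBX5, HBE1, HBZ, PTPRC, CDH5, PECAM1, BMP2, BMP4, SMAD5, CHRD, LEFTY2, SLC7A9, SLC10A1, CDH1, KLF4, ESRRB, NKX2-3, NKX2-1, HOXB1, GPX3, GUCA2A and GUCA2B. Of 120 named genes, 9 overlap a gene holding 10% or more of their count. Promoter sequences were not analysed here, and some list members are not reported by name.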

Additional observations from a re-analysis of the deposited data

How the results depend on the processing

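Against 3179 higher and 2171 lower transient genes, the alternatives (each library left out, PSC, DE and AFE alone, counts divided by 4, scaling by DESeq2 size factors or the total count, DESeq2's Wald test, limma with 1 or 0.1 added to FPKM, no filter, and at least 5 FPKM in 2 libraries) stayed within 1.5-fold, except that the FPKM filter, which tests 9676 genes, gave 2019 higher genes. In every setting, 1727 higher and 1171 lower genes were transient, where a gene that a filter left untested counts as not transient. The FPKM filter left 17 of the 120 named genes untested. Leaving out each library gave 4042 to 5418 contrast calls higher. With the replicate block the contrast called 4701 higher and 3192 lower genes, the transient programme held 2990 and 2043, and both flank tests called 1671 and 1211. What the replicate number stands for is not given in the labels. DE deviations correlated at 0.008 with PSC, 0.003 with AFE and -0.014 with LPO. With a single difference per stage, this cannot tell whether libraries of the same number shared a culture or batch. No named gene's direction changed. Of 120 named genes, 6 lost their call in at least 1 setting: NPR3, CORIN, PAX9 and ABCG1 with limma on log2(FPKM + 1) (adjusted p 0.0722, 0.0729, 0.0898 and 0.248), SESN2 without DE library 1 (0.0558) and RDH10 without DE library 2. ABCG1 also lost it without DE library 2 (0.0535), with 0.1 added to FPKM (0.0666) and in PSC, DE and AFE alone (0.149). DESeq2 size factors moved the median contrast of all genes from 0.06 to 0. Levels near 12 counts limit what a gene with no flank count can show.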

Other observations

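The widest gap to a flank among the higher genes without a symbol belonged to a long noncoding RNA on chromosome 12 (50707661 to 50710825), chosen after its values were seen, with 0.694 and 0 CPM in PSC, 569 and 477 in DE, 0.18 and 0.2 in AFE and 0.561 and 0.592 in LPO. Of the 1241 genes at least 2-fold higher in DE, 111 were long noncoding RNAs, 3.89% of those tested, and 1111 were protein coding, 6.89% of those tested. Also among the 2-fold higher genes and picked after its values were seen, GPX3, the secreted glutathione peroxidase, measured 21.4 and 13.9 CPM in PSC, 775 and 822 in DE and 15.5 and 17.2 in AFE and 10.2 and 11.4 in LPO.

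Among the 983 of these genes with a symbol, 95 pairs were immediate neighbours on a chromosome. Besides the apolipoproteins, they included GUCA2A and GUCA2B, the guanylin and uroguanylin peptides of gut epithelium, 3893 bases apart on chromosome 6, GUCA2A at 3.56 and 2.12 CPM in DE, GUCA2B at 0.813 and 0.42, and both with no count in the flanks. PSP-I, a seminal plasma spermadhesin of pigs, measured 0 and 0 CPM in PSC, 29.2 and 31 in DE and 0.0653 and 0.2 in AFE. These pairs were picked after their values were seen, and reads shared between neighbours were not examined.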
